A study of Mus musculus with 6 samples.

Results

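Chemokines are small secreted proteins that direct the movement of leukocytes and other cells along gradients, and chemokine receptors are the G protein-coupled receptors that read them. The group was defined by gene symbol. It holds every symbol that starts with Ccl, Cxcl, Ccr, Cxcr or Ackr followed by a digit, together with Cx3cl1, Cx3cr1, Xcl1 and Xcr1, where the array's annotation ties a probe set to that symbol alone. This gave 57 probe sets for 56 genes, of 22180 genes measured. The 56 genes were 34 ligands (19 of the CC class, 13 of the CXC class, Cx3cl1 and Xcl1), 18 signalling receptors and 4 atypical receptors.

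The class names describe the spacing of the first cysteines of the ligand. Inflammatory ligands such as Ccl2 and Cxcl1 are induced through NF-kB and act mainly on myeloid cells, while homeostatic ligands such as Cxcl12 are made steadily by stromal and epithelial cells. Atypical receptors bind ligands without classical G protein signalling and take them up or carry them across cells. In mammary tumours, chemokines made by the tumour cells are known for recruiting macrophages and neutrophils, and Cxcr4 and Ackr3 for their response to Cxcl12.

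The cells were NeuNDL-derived mouse cells, labelled as untreated, and all samples share NeuNDL, a constitutively active variant of the receptor Neu, also called ErbB2. Total RNA of 3 samples with the genotype SLK wild-type and 3 with SLK knockout was measured on 6 arrays, where SLK is a Ste20-like kinase. The series names several passages, but which passage, clone or line gave which sample is not stated in the labels, so p-values measure the spread between these samples, which may be technical. Values were taken as log2 signals, so that 1 unit is a doubling, and they report RNA and not secreted protein.

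Array medians lay between 3.93 and 3.97 over 41345 probe sets. Slk itself fell from 8.28 ± 0.07 (SD, n = 3) to 7.18 ± 0.03 (SD, n = 3), and was lower on every knockout array (limma, adjusted p = 0.0021). The epithelial keratins Krt8 (10.4) and Krt18 (10.6) had high signals, whereas the pan-leukocyte marker Ptprc stood at 2.22 in wild-type and 2.17 in knockout samples, below the lower quartile of all genes (3.07). Of all genes, 97 passed the threshold in the comparison of knockout with wild-type (adjusted p below 0.05 in limma with Benjamini-Hochberg adjustment over all genes), which is 0.437% of those tested.

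Of the 56 chemokine and receptor genes 1 passed this threshold, the CC ligand gene Ccl9, against the background of 0.437%. Ccl9 rose in knockout cells, no member fell, and no receptor passed. At an unadjusted p below 0.05 there were 8 members, against a background of 10.2% of all genes. Of these 5 were higher in knockout cells and 3 lower, where the background was 5.75% and 4.47%. The knockout arrays lay wholly above the wild-type arrays for 8 members and wholly below them for 2, where the background was 8.79% and 8.10% of all genes. Together these 10 members are a share close to the 16.9% of all genes whose groups were separate. The median log2 fold change, knockout minus wild-type, was 0.06 over the 56 members and 0.0038 over all genes. Of the members 37 had a higher and 19 a lower mean in knockout cells, against 11429 and 10751 of all genes.

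**Figure D1:**
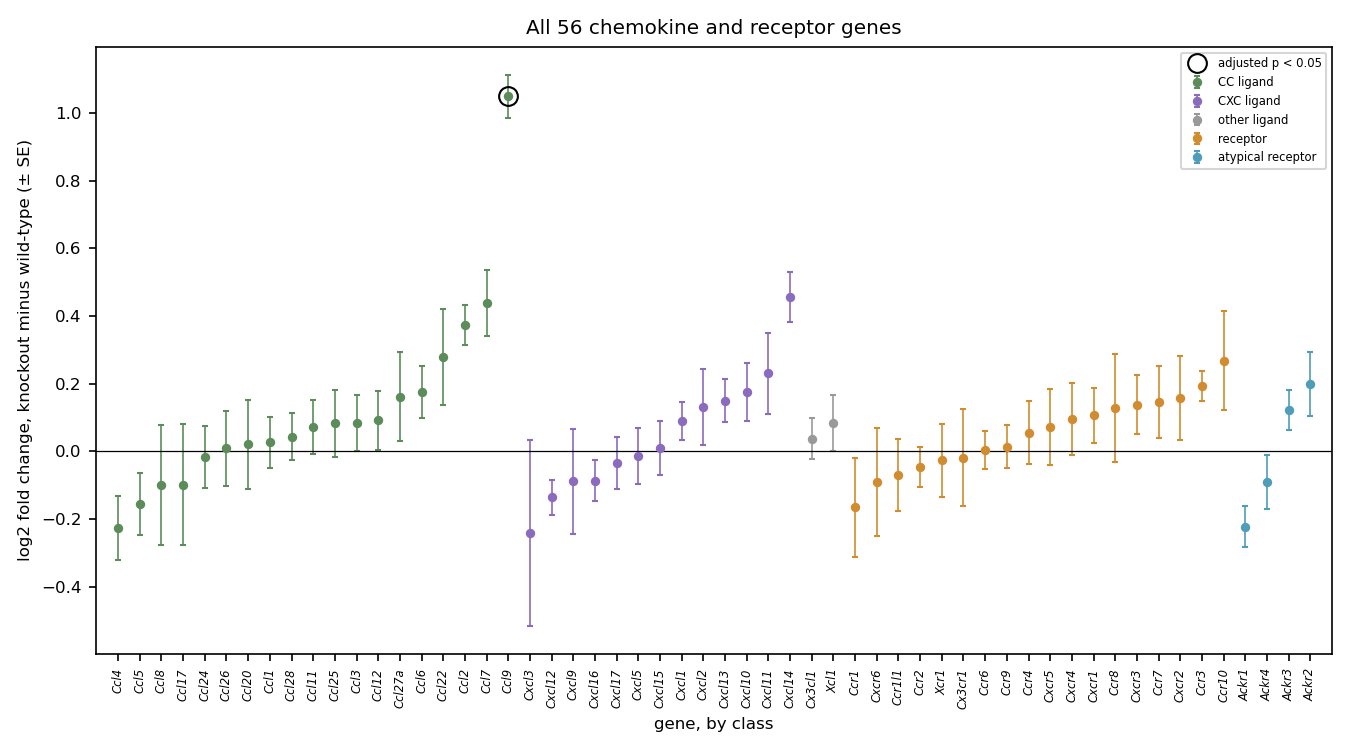
The log2 fold change, knockout minus wild-type, of each of the 56 genes with limma's moderated standard error, ordered by class and then by size (3 arrays per group). Ccl9, circled, stands at 1.05 and is the only gene past the threshold, while the other 55 lie between -0.24 and 0.46.

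Ccl9 encodes a CC chemokine, also known as MIP-1 gamma, that is made by myeloid and some epithelial cells and acts on the receptor Ccr1. Its signal was 7.26, 7.33 and 7.24 on wild-type arrays 1 to 3 and 8.40, 8.35 and 8.23 on knockout arrays 1 to 3. Every knockout value was higher than every wild-type value, with a gap of 0.90 between the groups, and the values within each group spanned far less than that gap. The group means were 7.28 ± 0.05 and 8.33 ± 0.09 (SD, n = 3 each), a 2.07-fold rise (log2 1.05, SE 0.06, limma adjusted p = 0.0030). The call was kept whichever single array was left out (adjusted p 0.020 to 0.034). Both group means were above the upper quartile of all genes (7.00), so the change concerned a gene with a clear signal in wild-type cells as well.

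The 250 bases upstream of the annotated start are given here for Ccl9, the gene that passed, and for Ccl6, its next neighbour on the chromosome and a CC ligand gene of the same region. Cxcl14 is shown as the CXC ligand with the highest fold change, and Cxcl1 as an inflammatory ligand whose group means were close. The windows come from the RefSeq annotation of GRCm38.p6: chr11:83578637-83578886, minus strand, for Ccl9, chr11:83593088-83593337, minus strand, for Ccl6, chr13:56296552-56296801, minus strand, for Cxcl14 and chr5:90890995-90891244, plus strand, for Cxcl1. Capitals mark matches, on either strand, to the NF-kB consensus, to the AP-1 motif TGANTCA or to the TATA motif TATAAA.
Ccl9: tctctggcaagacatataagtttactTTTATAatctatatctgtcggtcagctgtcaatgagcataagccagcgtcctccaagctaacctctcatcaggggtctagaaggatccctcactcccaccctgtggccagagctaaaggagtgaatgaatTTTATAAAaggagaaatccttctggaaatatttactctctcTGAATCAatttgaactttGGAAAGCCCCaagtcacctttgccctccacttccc
Ccl6: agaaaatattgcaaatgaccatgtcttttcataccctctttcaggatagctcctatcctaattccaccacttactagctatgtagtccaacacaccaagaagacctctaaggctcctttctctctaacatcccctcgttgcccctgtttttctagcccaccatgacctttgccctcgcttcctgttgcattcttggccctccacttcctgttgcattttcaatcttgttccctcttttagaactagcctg
Cxcl14: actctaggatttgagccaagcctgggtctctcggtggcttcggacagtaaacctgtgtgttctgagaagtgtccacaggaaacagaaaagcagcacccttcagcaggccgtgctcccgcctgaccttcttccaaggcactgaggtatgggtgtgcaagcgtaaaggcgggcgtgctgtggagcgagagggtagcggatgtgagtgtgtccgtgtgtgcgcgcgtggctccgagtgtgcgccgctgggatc
Cxcl1: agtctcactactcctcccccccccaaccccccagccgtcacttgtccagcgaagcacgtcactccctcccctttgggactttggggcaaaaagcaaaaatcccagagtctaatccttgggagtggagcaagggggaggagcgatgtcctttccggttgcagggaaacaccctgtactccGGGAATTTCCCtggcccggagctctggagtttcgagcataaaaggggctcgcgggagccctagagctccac

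The Ccl9 window held 1 NF-kB match that begins 35 bases before the start, 1 AP-1 match at 53 bases, and TATA matches at 92, 94 and 224 bases, of which the first and the second overlap. The Ccl6 and Cxcl14 windows held no match to any of these motifs. The Cxcl1 window held overlapping NF-kB matches, beginning 71 and 70 bases before the start on opposite strands. Ccl9 and Ccl6 shared exact runs of 12 bases (ACCTTTGCCCTC) and 13 bases (GCCCTCCACTTCC). In Ccl9 these runs overlap and end 2 bases before the start, and in Ccl6 they lie apart, at 86 to 75 and 55 to 43 bases before it. The table of upstream windows held 42 of the 56 genes, with 46 windows, and Ccl2 and Ccl7 were not among them. The NF-kB consensus was found in 11 of these 46 windows and in 7.25% of all 32851 windows of the same length, AP-1 in 5 and in 6.75%, and TATA in 14 and in 12.4%. These are matches of letters, and binding was not measured.

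Next to Ccl9 in size came 3 ligand genes that were higher on all 3 knockout arrays and did not pass the threshold: Cxcl14, Ccl7 and Ccl2. Ccl2, the main attractant of monocytes, had signals of 4.52, 4.57 and 4.61 on the wild-type arrays and 4.89, 5.03 and 4.90 on the knockout arrays. The groups did not overlap, with a gap of 0.28. The difference of the means was 0.37 on the log2 scale (SE 0.06), or 1.30-fold, with adjusted p = 0.077. Ccl7, a second monocyte attractant, read 4.63, 4.51 and 4.72 in wild-type and 5.23, 4.90 and 5.05 in knockout samples. Its values were also separate, with a gap of 0.18, and the difference was 0.44 (SE 0.10, 1.35-fold, adjusted p = 0.18). Both genes lay near the median of all genes (4.39), and whether fold changes are compressed at that signal was not tested.

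Cxcl14 encodes a CXC ligand made by epithelial tissues. Its signals were 4.48, 4.55 and 4.33 in wild-type and 4.87, 4.99 and 4.87 in knockout samples. All knockout values were higher, with a gap of 0.32, and the means, 4.45 ± 0.11 and 4.91 ± 0.07 (SD, n = 3 each), differed by 0.46 (SE 0.07, 1.37-fold, adjusted p = 0.077). Ccl2 and Cxcl14 each passed the threshold under 4 of 16 alternative settings, those that left out the dimmest genes or modelled the spread with the signal (adjusted p over all 16 from 0.011 to 0.26 for Ccl2 and from 0.013 to 0.25 for Cxcl14). Ccl7 passed under 1 of 16, without the dimmest 50% of genes (adjusted p from 0.048 to 0.43).

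**Figure D2:**
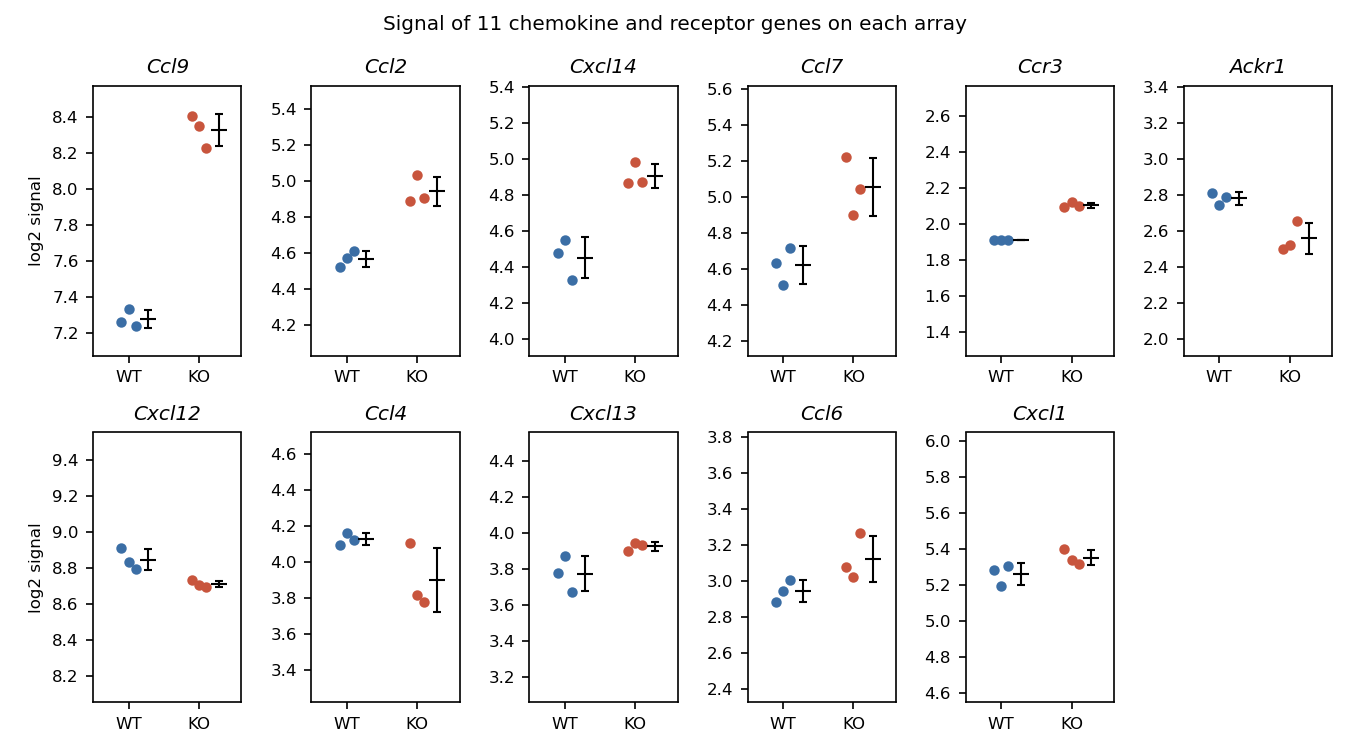
Log2 signal on each array for the 11 members with an unadjusted p below 0.05 or with groups that do not overlap, 3 wild-type (WT) and 3 knockout (KO) arrays each. Every panel spans 1.5 log2 units, and bars give mean ± SD. The Ccl9 groups are 0.90 units apart, and the Ccl4 groups overlap.

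Cxcl12, the ligand of Cxcr4 and Ackr3, differed in the other direction, with signals well above the upper quartile of all genes. Its signals were 8.91, 8.84 and 8.80 in wild-type and 8.73, 8.71 and 8.70 in knockout samples. All knockout values were lower, though by a gap of 0.06 only, and the difference of -0.14 (SE 0.05, 1.10-fold) did not pass the threshold (adjusted p = 0.45). Ccl4, an inflammatory ligand also called MIP-1 beta, read 4.09, 4.16 and 4.12 in wild-type and 4.11, 3.82 and 3.78 in knockout samples. Knockout arrays 2 and 3 were lower, knockout array 1 lay within the wild-type range, and the difference was -0.23 (SE 0.09, adjusted p = 0.48).

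For 3 further ligands the knockout arrays were separate from the wild-type arrays by small gaps. Cxcl13, the B cell attractant, read 3.78, 3.87 and 3.68 in wild-type and 3.90, 3.94 and 3.93 in knockout samples (log2 0.15, SE 0.06, adjusted p = 0.50). Ccl6, a relative of Ccl9, read 2.89, 2.94 and 3.01 against 3.08, 3.02 and 3.27 (log2 0.18, SE 0.08, adjusted p = 0.51). Cxcl1, the neutrophil attractant KC, read 5.28, 5.19 and 5.31 against 5.40, 5.34 and 5.32 (log2 0.09, SE 0.06, adjusted p = 0.65). The gap was 0.01 for Ccl6 and for Cxcl1 and 0.03 for Cxcl13, smaller in each case than the range of the values within either group.

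Among the other ligands with signals above the upper quartile of all genes, the groups overlapped. Cxcl16, a membrane-bound ligand that also acts as a scavenger receptor, had means of 7.63 ± 0.06 in wild-type and 7.54 ± 0.07 in knockout samples (SD, n = 3 each). Cx3cl1, or fractalkine, the other ligand with a membrane anchor, had means of 7.59 ± 0.08 and 7.63 ± 0.04. Ccl5 (RANTES), an attractant of T cells and monocytes, lay just below that quartile with 6.60 ± 0.12 and 6.44 ± 0.12. Ccl5 read 6.66, 6.68 and 6.46 on the wild-type arrays and 6.53, 6.50 and 6.30 on the knockout arrays, so that the lowest wild-type value fell within the knockout range.

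The neutrophil-attracting ligands of the Cxcr2 group, apart from Cxcl1, had overlapping groups: Cxcl5 had means of 4.75 ± 0.07 and 4.73 ± 0.14, Cxcl2 of 3.38 ± 0.17 and 3.51 ± 0.15, and Cxcl3 of 2.58 ± 0.51 and 2.33 ± 0.32 (SD, n = 3 each). Cxcl3 had the widest spread of all members, with wild-type values of 3.11, 2.53 and 2.09. The interferon-induced ligands of Cxcr3 were dim, with Cxcl9 at 3.07 ± 0.25 and 2.98 ± 0.22, Cxcl10 at 3.64 ± 0.15 and 3.81 ± 0.05, and Cxcl11 at 3.30 ± 0.09 and 3.53 ± 0.23. None of these ligands separated the groups.

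**Figure D3:**
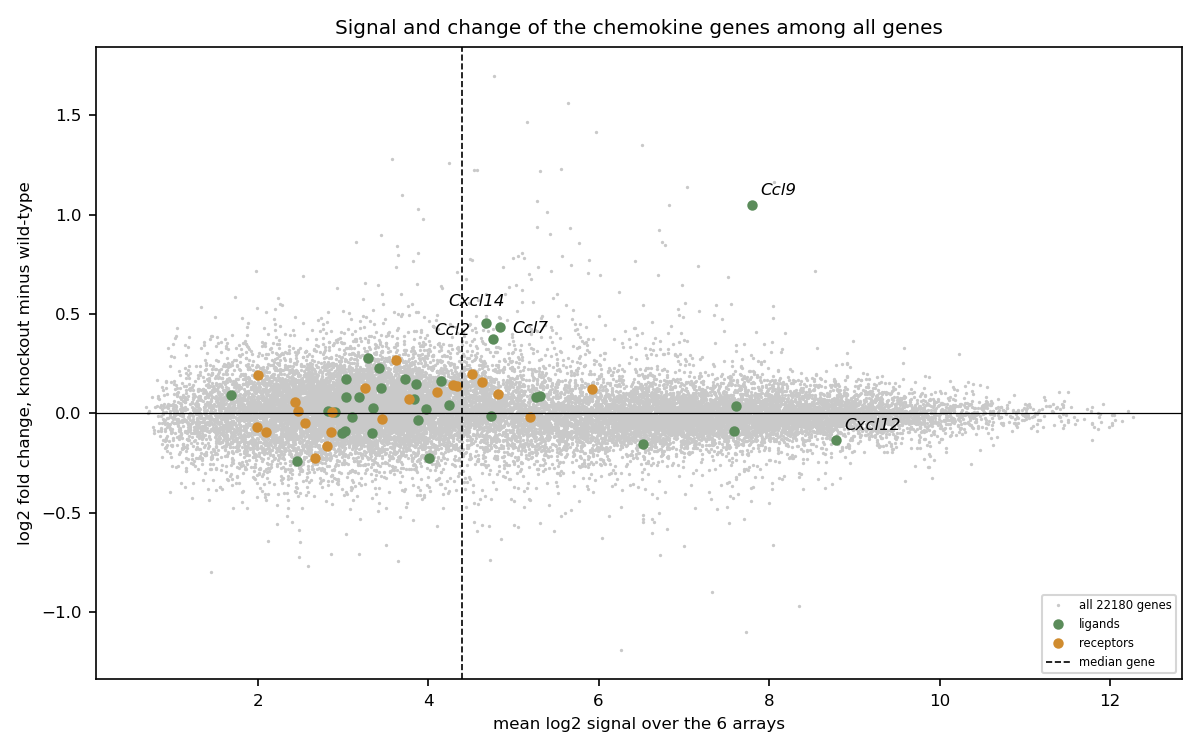
Log2 fold change, knockout minus wild-type, against the mean log2 signal over the 6 arrays for all 22180 genes (grey), the 34 ligands (green) and the 22 receptors (orange), with the median gene at 4.39 as a dashed line. Of the members 16 lie right of the line, and Ccl9 stands apart from the other members.

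Receptor genes were dim in both groups, and none passed the threshold. Of 22 receptors 5 had a mean above the median gene, among them Ackr3 at 5.93, against 11 of 34 ligands. Probe sets differ in response, so these signals do not order the genes by RNA amount, and no detection calls were used. The receptors' log2 fold changes ran from -0.22 to 0.27, with a median of 0.06. Of the 22 receptors 2 had an unadjusted p below 0.05, against a background of 10.2% of all genes.

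The receptor of Ccl9, Ccr1, read 2.79, 2.90 and 2.99 in wild-type and 2.65, 2.48 and 3.06 in knockout samples, with overlapping groups below the lower quartile of all genes. Ccr2, the receptor of Ccl2 and Ccl7, read 2.62, 2.56 and 2.56 against 2.53, 2.46 and 2.61, and was dim as well. Cxcr4 read 4.69, 4.69 and 4.92 against 5.01, 4.68 and 4.91, and Ackr3 read 5.85, 5.85 and 5.91 against 6.06, 6.01 and 5.90, so neither receptor of Cxcl12 separated the groups. Cxcr6, the receptor of Cxcl16, stood at 2.91 ± 0.18 and 2.82 ± 0.29, and Cx3cr1, the receptor of Cx3cl1, at 5.20 ± 0.30 and 5.19 ± 0.05 (SD, n = 3 each).

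The receptors with an unadjusted p below 0.05 were Ccr3 and Ackr1, both near the bottom of the signal range. Ccr3, the eosinophil receptor, read 1.91 on each of the 3 wild-type arrays, with an SD of 9.8e-05, and 2.10, 2.12 and 2.10 on the knockout arrays (log2 0.19, SE 0.04, adjusted p = 0.20). Both groups lay far below the lower quartile of all genes. Ackr1, the Duffy antigen, which binds many inflammatory chemokines, read 2.81, 2.74 and 2.79 against 2.50, 2.52 and 2.65, with lower values on all 3 knockout arrays (log2 -0.22, SE 0.06, adjusted p = 0.27). The other atypical receptors, the CC scavenger Ackr2 (4.41 ± 0.11 and 4.61 ± 0.15) and Ackr4 (2.15 ± 0.12 and 2.06 ± 0.09), had overlapping groups (SD, n = 3 each).

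The remaining receptors also had groups that overlapped. The neutrophil receptors Cxcr1 and Cxcr2 had means of 4.05 and 4.56 in wild-type and of 4.15 and 4.72 in knockout samples. The T and B cell receptors Cxcr3 (4.27 and 4.41), Ccr7 (4.22 and 4.36) and Cxcr5 (3.73 and 3.81) lay below the median gene except Cxcr3 in knockout cells. Ccr10, a receptor of skin- and mucosa-homing lymphocytes, had the highest fold change of the receptors, with means of 3.49 ± 0.27 and 3.76 ± 0.16 (SD, n = 3 each), and overlapping values.

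Many chemokine genes lie side by side, and neighbours differed in their values. In the RefSeq gene order of GRCm38.p6, with no other protein-coding gene between them, Ccl2, Ccl7, Ccl11, Ccl12, Ccl8 and Ccl1 form one run on chromosome 11. Ccl2 and Ccl7, which start the run, had the differences of 0.37 and 0.44 given above. The eosinophil attractant Ccl11 had means of 3.80 ± 0.07 and 3.87 ± 0.13, Ccl12 of 1.64 ± 0.13 and 1.73 ± 0.11, Ccl8 of 3.04 ± 0.23 and 2.94 ± 0.30, and Ccl1 of 3.34 ± 0.08 and 3.37 ± 0.11 (SD, n = 3 each), with overlapping groups for all 4.

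The other run on chromosome 11 is Ccl5, Ccl9, Ccl6, Ccl3 and Ccl4. Only Ccl9 of these 5 passed the threshold. The genes on either side of it, Ccl5 and Ccl6, had log2 means that differed in opposite directions, as the values above show, and Ccl3 stood at 3.15 ± 0.13 and 3.23 ± 0.09 (SD, n = 3 each). In the run of CXC ligands on chromosome 5 (Cxcl3, Cxcl15, Cxcl1 and Cxcl2) and the run of receptors on chromosome 9 (Cxcr6, Xcr1, Ccr1, Ccr1l1, Ccr3 and Ccr2) no gene passed. Whether probe sets of near-identical relatives share probes was not tested.

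**Figure D4:**
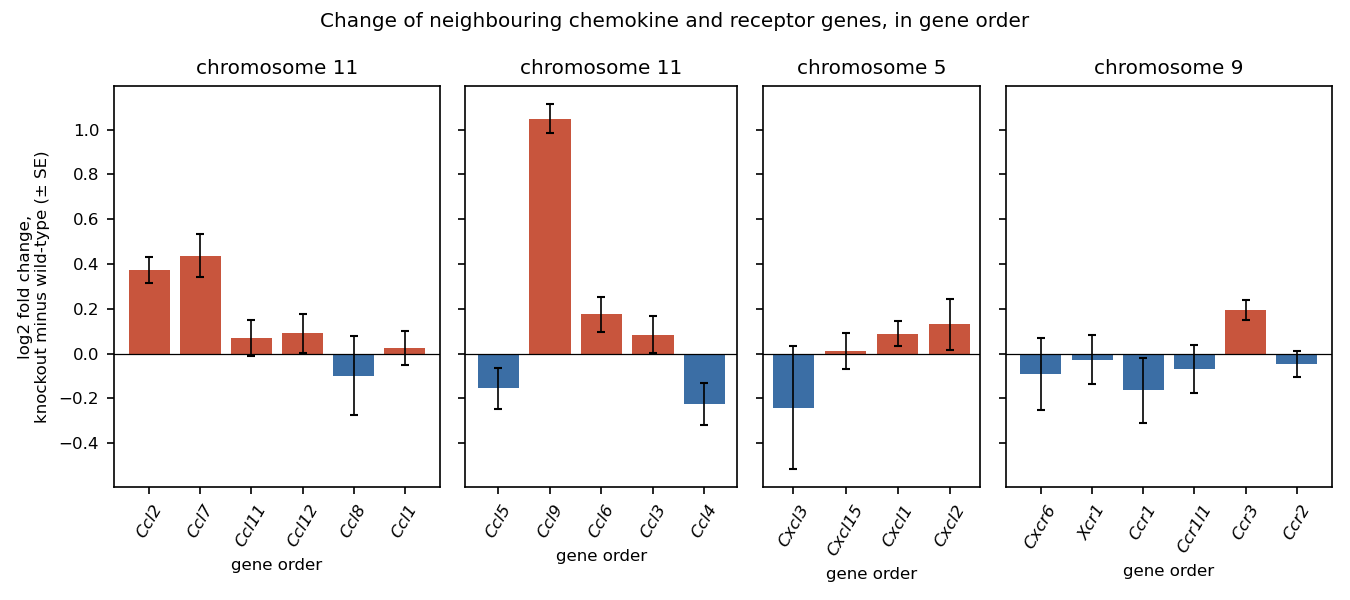
Log2 fold change, knockout minus wild-type, with limma's standard error, for the 4 runs of at least 4 neighbouring members, in gene order and not to distance. Red bars are above 0 and blue bars below. Ccl9 at 1.05 stands between Ccl5 and Ccl6, and Ccl2 and Ccl7 are adjacent at 0.37 and 0.44.

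RNA of genes that act upstream of chemokine genes was read from lists of other genes, and the activity of these pathways was not measured. Of 26 genes of the NF-kB pathway and its feedback 21 were measured, and none passed the threshold. At an unadjusted p below 0.05 there was 1 higher and none lower, and the list's median log2 fold change was -0.02. For this and the other lists below, the background at that p was 5.75% of all genes higher and 4.47% lower. The groups were separate for 1 NF-kB list gene with higher and 4 with lower knockout values, against 8.79% and 8.10% of all genes. The 3 members with the smallest p were Ikbkg, the regulatory subunit of the IkB kinase complex (log2 0.28, SE 0.07, adjusted p = 0.26), Bcl3, an atypical IkB protein (-0.18, SE 0.07, adjusted p = 0.49), and the inhibitor Nfkbie (-0.13, SE 0.09, adjusted p = 0.66).

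Among 32 measured genes of cytokines and receptors that induce chemokines none passed, with 1 higher and 2 lower at an unadjusted p below 0.05 and a median of -0.0027. Osmr, a receptor subunit for oncostatin M, read 7.78, 7.75 and 7.81 in wild-type and 7.44, 7.50 and 7.42 in knockout samples, so that all knockout values were lower (log2 -0.33, SE 0.05, adjusted p = 0.065). It passed under 4 of 16 alternative settings, with adjusted p from 0.0016 to 0.27. The interleukin 1 receptor antagonist gene Il1rn (-0.17, adjusted p = 0.35) and the interleukin 1 co-receptor gene Il1rap (0.17, adjusted p = 0.37) followed.

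Of 32 genes that carry signals from chemokine receptors 28 were measured and none passed, with 4 higher and 1 lower at an unadjusted p below 0.05 and a median of 0.05. Gnai1, an inhibitory G protein alpha subunit, read 4.95, 4.51 and 4.92 in wild-type and 5.39, 5.38 and 5.47 in knockout samples. Its groups did not overlap, and wild-type array 2 was the lowest (log2 0.62, SE 0.12, adjusted p = 0.13). Pik3r5, a regulatory subunit of PI3K gamma, was 0.33 higher (SE 0.07, adjusted p = 0.15), and the arrestin gene Arrb1 0.23 higher (SE 0.06, adjusted p = 0.25). Gnai1 and Pik3r5 each passed under 3 of the 16 settings (adjusted p from 0.015 to 0.32 and from 0.0055 to 0.36).

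The list of chemokine-like proteins and enzymes that process chemokines had 23 of 25 genes measured and none past the threshold, with 1 higher and 3 lower at an unadjusted p below 0.05 and a median of -0.01. Ppbp, a CXC chemokine by sequence whose symbol lies outside the definition used here, read 5.38, 5.37 and 5.27 in wild-type and 4.93, 5.07 and 4.90 in knockout samples. All knockout values were lower (log2 -0.37, SE 0.07, adjusted p = 0.099). Mmp9, a metalloprotease that cleaves several chemokines, was 0.60 higher (SE 0.08, adjusted p = 0.054), and the membrane metalloprotease Mmp14 differed by -0.33 (SE 0.06, adjusted p = 0.097). Under alternative settings Mmp9 passed in 5 of 16 and Mmp14 and Ppbp in 4 of 16 each (adjusted p from 0.0074 to 0.26, from 0.0026 to 0.30 and from 0.017 to 0.31).

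**Figure D5:**
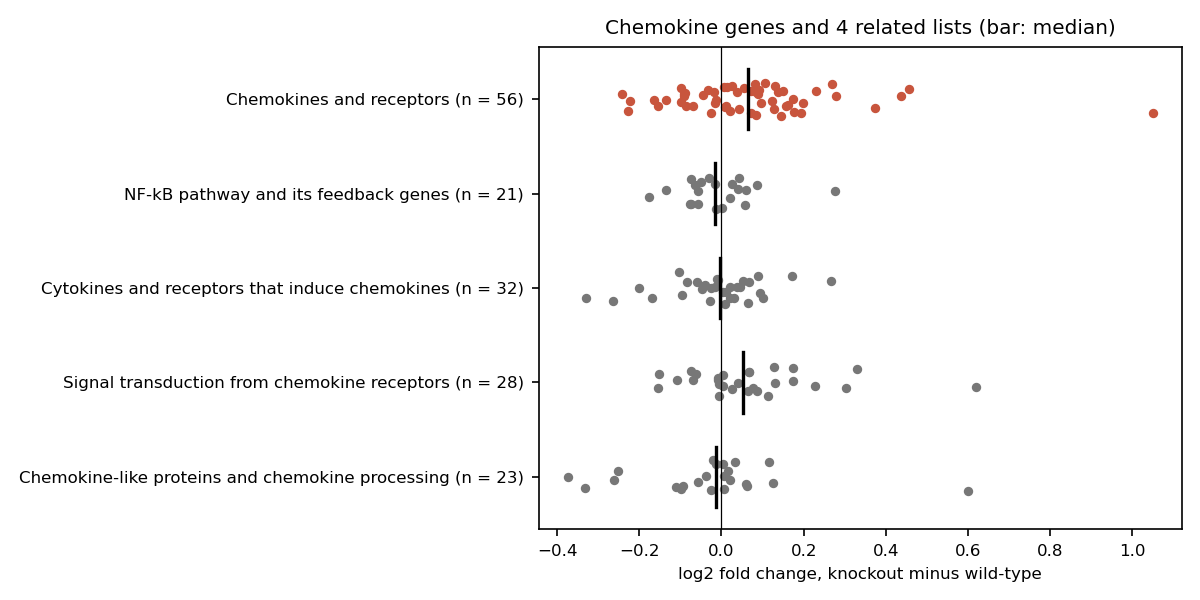
Log2 fold change, knockout minus wild-type, of the 56 chemokine and receptor genes (red) and of the measured genes of 4 related lists (grey), 1 point per gene, with each list's median as a bar. The medians lie between -0.02 and 0.06, and Ccl9 is the point farthest to the right.

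Leukocyte markers were read beside these values, because many chemokine and receptor genes are best known from leukocytes. Of 23 measured markers none passed the threshold, with 2 higher and 1 lower at an unadjusted p below 0.05, against 5.75% and 4.47% of all genes. The 2 higher ones, named after their values were seen, were the myeloid genes Tyrobp (3.12 in wild-type and 3.41 in knockout samples) and Fcer1g (4.26 and 4.52), both with separate groups. The lower one was Fcer1a (1.76 and 1.59), also with separate groups. Of the 23 markers the groups were separate for 3 with higher and 1 with lower knockout values, against 8.79% and 8.10% of all genes. The summed linear signal of the 23 markers ranged from 656 to 688.7 on the wild-type arrays and from 689.7 to 751 on the knockout arrays, so the groups did not overlap. Cd14, Cd68 and S100a8 were the brightest, at 8.03, 7.15 and 6.45 in wild-type and 8.19, 7.10 and 6.43 in knockout samples, and so weigh most in that sum. Cd14 was higher on every knockout array than on any wild-type array. The sum was not taken without it, so its narrow separation says nothing about the other markers. The defining markers Ptprc (2.22 and 2.17), the T cell gene Cd3e (3.10 and 3.23), the macrophage gene Adgre1 (2.78 and 2.84) and the granulocyte gene Ly6g (3.10 and 3.16) were dim in both groups. The part of such cells in the Ccl9 result was not tested, and in bulk RNA fewer cells of a type and less RNA per cell cannot be told apart.

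Of the 12 fibroblast markers, which also mark cells that make Ccl2, Ccl7 and Cxcl12, 1 passed the threshold as lower, Pdgfrb (7.33 and 6.67, adjusted p = 0.0066). None passed as higher. Over all genes 0.113% passed as lower and 0.325% as higher. At an unadjusted p below 0.05 there were 6, of which 2 were higher and 4 lower, against the background of 10.2%. The groups were separate for 3 with higher and 4 with lower knockout values, against 8.79% and 8.10% of all genes. Their summed linear signal was 817 to 862 on the wild-type and 800.0 to 824 on the knockout arrays, with overlapping groups. None of 8 endothelial markers passed (2 lower at an unadjusted p below 0.05, against 4.47% of all genes). Of 11 mammary epithelial markers Krt14 and Cdh1 passed as lower (adjusted p = 0.0096 and 0.022). None passed as higher, where the background was again 0.113% lower and 0.325% higher. At an unadjusted p below 0.05 there were 5 epithelial markers, 2 higher (Krt8 and Krt18) and 3 lower, against the background of 10.2%. The epithelial groups were separate for 4 with higher and 3 with lower knockout values, against 8.79% and 8.10% of all genes. Their part in the chemokine values was not tested. When single arrays were left out in turn, Pdgfrb passed in 5 of 6 cases, Krt14 in 1 and Cdh1 in 0, with adjusted p up to 0.050, 0.073 and 0.13. The Cdh1 call also depended on the probe set kept. With the mean of its probe sets Cdh1 differed by -0.27 on the log2 scale (limma adjusted p = 0.45).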

How the data were processed

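RNA from 3 wild-type and 3 knockout samples was measured on one-colour biotin-labelled arrays. The authors deposited log2 values for 41345 probe sets per array, made with Affymetrix Expression Console 1.4.1.46, per the submitters' processing notes. Not given in the sources used here are background correction, normalization and log base. The values, up to 12.4, were taken as log2, and no further normalization was applied. Summarised array signals can compress the changes of dim genes, which was not measured here.

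Of the probe sets 23521 had 1 gene symbol in the platform annotation, 1814 had several and 16010 were not listed. Per symbol the probe set with the highest mean was kept, giving 22180 genes. Knockout was compared with wild-type in limma 3.58.1 (R 4.3.3; lmFit and eBayes, no covariate, no filter), two-sided, with Benjamini-Hochberg adjustment over all genes. The fit was tested on simulated data. Gene lists are described by counts, without a test. Named in full were members with an unadjusted p below 0.05 or separate groups, the 3 list members with the smallest p, and markers past the threshold. Members, lists and rules were chosen with earlier results of these data known. Upstream sequences and gene order came from RefSeq tables of GRCm38.p6. The alternatives were quantile normalization, median centring, filters on dim genes, other uses of probe sets, other variance models, array weights, a replicate block and leaving out each array.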

Additional observations from a re-analysis of the deposited data

How the results depend on the processing

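None of the 11 members named in full changed sign under the alternatives in which it was tested, which were all 16 except 15 for Ccl4 and Cxcl13 and 14 for Ccr3, Ackr1 and Ccl6 (removed by filters on dim genes), while 22 of all 56 members did so under at least 1. The 97 genes called became 206 without the dimmest 30% of genes, 341 without the dimmest 50%, 441 with an intensity trend, 443 with a robust fit and trend, 29 when every probe set was tested by itself, and 16 to 28 with 1 array left out. The 1 member called became 3 without the dimmest 30%, with the trend and with the robust fit, and 4 without the dimmest 50%, and stayed at 1 to 1 with 1 array left out. The filters leave fewer genes to adjust over, and the whole fit was repeated on those genes, while the trend settings drop no gene. The cause of the changed counts was not tested. Replicate numbers are shared between the groups, and the deviations of same-numbered samples from their group means correlated at 0.04, 0.02 and -0.07. With 3 samples per group these values cannot decide whether the numbers pair the samples, and the labels do not state it. With a replicate block 6 genes and 0 members were called, and Ccl9 had adjusted p = 0.064 (1.3e-06 to 0.064 over all alternatives). Not every sample correlated best with its own number. The number of arrays and the low signal of most receptors limit what these values can show.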

Other observations

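Chemokines of the Ccl19, Ccl21 and Ccl27 families are read by 33 probe sets that name several near-identical genes and were not used above. Their mean log2 signals ran from 3.65 to 5.63, and their log2 fold changes, knockout minus wild-type, from -0.01 to 0.26. None passed the limma threshold adjusted over all 41345 probe sets, while 4 had an unadjusted p below 0.05, all of the Ccl27 family. Of all genes 10.2% had a p below that value, and the share over all probe sets was not counted. These probe sets cover copies of the same genes and are not independent of each other. Some of the Ccl27 family had the same value on every array as the probe set kept for the member Ccl27a.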
